A study of Mus musculus with 18 samples.

Results

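Whole brains of 9 vehicle-treated male mice were compared across age, 5 mice at 27 months against 4 mice at 6 months. They are 9 of the 18 libraries of the series, and the age and treatment labels alone placed a mouse in its group. The comparison, its gene lists and its tests were chosen with earlier results of these data known, so counts per list are descriptions. Genes entered the comparison when their mean over the libraries in the fit was at least 10 normalised reads, which left 15808 of the 24405 genes of the table. The strain label of every mouse is C57BL/6N and the growth protocol says C57BL/6. No engineered allele or transgene is named. All 9 mice drank water with 0.2% carboxymethylcellulose, the thickener used as vehicle. The other libraries come from mice of the same ages that were given apigenin, a plant flavone, at 0.5 mg/mL in that water. Poly(A) RNA was sequenced from postmortem whole brain, with 1 library per mouse. The labels do not say whether mice of one age were littermates or were housed and killed on one day. The p-values set a difference between ages against the spread among mice of the fit. That fit held vehicle and apigenin mice and treated each mouse as independent.

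The brain's resident macrophages, the microglia, carry receptors for interferons, complement and lipid ligands. Some microglial receptors signal by way of immunoreceptor tyrosine-based activation motifs (ITAMs), and interferon regulatory factors act in interferon signalling. Interferon signalling ends at a promoter element that recruits a complex with the factor IRF9, and its targets hold back viral replication and load peptides on MHC class I. Astrocytes raise intermediate filaments and protease inhibitors when tissue is injured, oligodendrocytes wrap axons in myelin, and new neurons are added to the adult rodent brain mainly in the hippocampus and along the path to the olfactory bulb.

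Depth in the 9 libraries ran from 28171596 to 41145635 reads assigned to genes, with 17978 to 18782 genes above 0. Y-linked Ddx3y ranged from 1392.6 to 2023.5 and Xist from 0 to 9.528 normalised reads, as in males. The neuronal marker Snap25 (91951 to 109935), the myelin gene Mbp (96544 to 181544) and the astrocyte gene Gfap (8744 to 19222) were abundant in each library. Several libraries stood apart in which brain regions they carried. Young 1 had little cerebellar RNA: the granule cell gene Gabra6 stood at 166.3 there against 2005.2 to 3131.0 in the other libraries, and the mean log2 level of 20 cerebellar genes was 9.432 against 11.078 to 11.462. Young 1 also had the lowest myelin list. In old 1, 3, 4 and 5 genes of the hindbrain and cord were low. Hoxb5, a homeobox gene of that part, was at 0 to 4.913 in these 4 and at 137.0 to 293.0 in the young mice and old 2. Old 2 had the highest mean level of 20 glucocorticoid-induced genes, 10.531 against 9.606 to 9.873 in the other 8 libraries. Olfactory bulb and pituitary content differed too. The mean log2 level of the olfactory bulb list ran from 6.951 in old 5 to 9.254 in young 1, and Omp, a gene of olfactory neurons, from 11.23 to 449.1 normalised reads. The pituitary list ran from 3.805 in old 3 to 6.263 in young 1, where growth hormone, Gh, stood at 344.9 against at most 40.29 elsewhere. The mean log2 level of the brainstem and cord list was 5.917 to 7.022 in young mice and 7.018 in old 2. It was 3.221 to 4.918 in old 1, 3, 4 and 5. The list of monoamine and acetylcholine systems, which holds Tph2, Fev and Dbh, was at 8.043 to 8.264 in those 4 old mice. It was at 8.28 to 8.38 in young mice and 8.404 in old 2. How much of the brainstem each library held was not tested. Among these 9 mice the level of the brainstem and cord list largely went with age, and a covariate cannot fully tell list and age apart. Calls that ended without 1 mouse, or with the brainstem list as a covariate, are named beside the genes described. A call kept with that covariate is not thereby cleared of regional content.

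In old mice 622 genes passed the test (3.93% of those tested, limma, adjusted p under 0.05). Of these, 495 were higher (3.13%) and 127 were lower (0.803%). Counts per list below are to be read beside these shares, and a list near them is not set apart by its count. The genes that rose were of lower abundance and moved further: their median level was 293.75 normalised reads and their median change 1.507-fold, while the genes that fell had a median level of 1523.15 and changed by a median of 1.268-fold. At least 2-fold changes were seen in 107 of the genes that rose and in 7 of those that fell. Over the 15808 genes the median difference was 0.0388 on the log2 scale. The values of the 5 old and 4 young mice did not overlap for 576 of the 622 genes, and over all tested genes 6.62% lay wholly above the young mice and 3.44% wholly below. The young mice varied less than the old ones, with a median SD of 0.1267 against 0.153 on the log2 scale. In whole-brain RNA a changed number of cells of a type and a changed amount of RNA per cell cannot be told apart. The share of calls that were higher was 79.6%, but it was 64.2% after quantile normalisation, 64.8% with edgeR on the recovered reads, 56.6% with DESeq2, 66.2% with library weights and 69.6% with the brainstem list as a covariate. The number passing dropped to 246 without young 2, 294 without young 3, 316 without young 4, 329 without old 2, 375 without old 1, 400 without old 4 and 407 without old 5. Without young 1 it was 441, with 382 of the 622 genes kept. The fit also held 8 apigenin libraries, which share its estimate of the spread. In the 9 vehicle libraries alone 402 genes passed, with 350 of the 622 kept, and those losses are not named gene by gene.

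**Figure D1:**
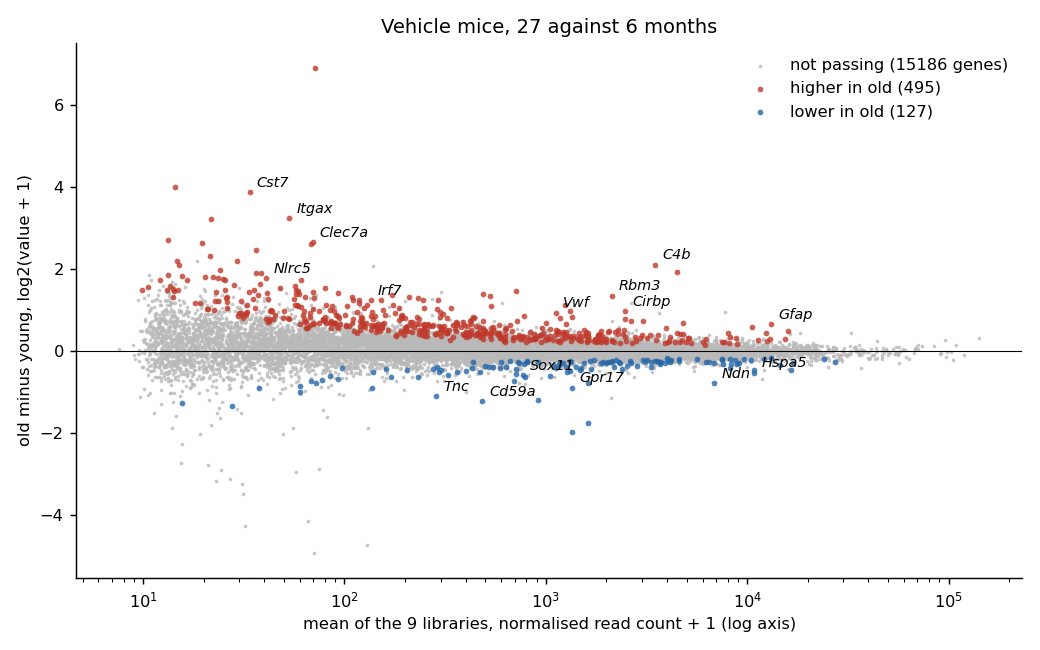
Each point is 1 of the 15808 tested genes, with the mean of the 9 vehicle libraries on a log axis (normalised reads + 1) and the old minus young difference in log2(value + 1) on the vertical axis. The 495 higher and 127 lower genes that passed are coloured. The lower calls crowd at high abundance and small differences, and the unlabelled point at the top is a predicted gene that every young library lists at 0.

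In the interferon system, signalling genes, effectors, GTPases and sensors all held genes that rose in old mice. Among 20 signalling genes 6 rose and 1 fell, with a median log2 difference of 0.23. Irf7, the transcription factor that amplifies type I interferon (chr7:141262706-141266481, minus strand, GRCm38), was at 72.6, 68.4, 62.9 and 102 normalised reads in young 1 to 4 and at 156, 176, 188, 226 and 154 in old 1 to 5. Every old mouse was above every young mouse. Irf7 rose by 1.24 ± 0.15 (SE) on the log2 scale, a 2.36-fold difference (adjusted p = 0.000188). Irf7 overlaps Phrf1 on the other strand, and whether counting used strand is not given in the sources used here. Irf8, which sets macrophage identity, rose by 0.70 ± 0.12 (adjusted p = 0.00241), and Usp18, the protease that shuts the interferon receptor off, rose by 1.44 ± 0.24 (adjusted p = 0.00299). Usp18 was at 62.8 in young 1 and at 25.2 to 29.4 in the other 3 young mice, so that the lowest old mouse, at 75.5, was close to young 1 only. Irf9 (0.58) passed at adjusted p = 0.0275, while Stat2 (0.43) had an adjusted p of 0.209. The call of Irf9 was lost when old 2, old 4, young 1, young 2 or young 4 was left out (0.0536 to 0.0845). The 6 higher calls became 3 without old 2, old 4, young 1, young 2 or young 4, and the 1 lower call, the interferon gamma receptor chain Ifngr2 at adjusted p = 0.0454, was lost when any 1 of the 9 mice was left out (0.0514 to 0.142) and with the brainstem list as a covariate (0.0736).

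Of 40 interferon effectors 21 rose and none fell, with a median log2 difference of 0.71 (0.67 to 0.77 with 1 mouse left out) against 0.0388 over all genes. Ifit1, which binds viral RNA caps, was at 108, 79.6, 96.3 and 82.5 in young mice and 211, 287, 223, 244 and 211 in old mice. Ifit3, its partner (chr19:34583531-34588731, plus strand), was at 312, 218, 241 and 241 in young mice and 576, 917, 693, 629 and 553 in old mice. For both genes the groups were clear of each other, with old 2 the highest, and the differences were 2.56-fold (adjusted p = 0.000148) and 2.64-fold (adjusted p = 0.00101). Reads of Ifit3 and its near copy Ifit3b may be shared, so their separate values are uncertain. Oas1a and Oasl2, of the family that senses double-stranded RNA, rose by 1.73 ± 0.24 and 1.24 ± 0.19 on the log2 scale (adjusted p = 0.000589 and 0.000939). Trim30a rose by 1.24 ± 0.18, and Bst2, which tethers budding virus to the cell, by 1.05 ± 0.17 (adjusted p = 0.000668 and 0.00211). Lgals3bp, a secreted galectin ligand, had the smallest adjusted p of the list (8.2e-05): it was at 662 to 847 in young mice and at 1360 to 2150 in old mice. Rsad2, or viperin, rose by 0.80 ± 0.15 and Xaf1 by 0.78 ± 0.13 (adjusted p = 0.00814 and 0.0031). Isg15 itself, a ubiquitin-like effector counted here among the signalling genes, had a log2 difference of 0.62 ± 0.20 and an adjusted p of 0.0929, with old mice at 62.9 to 86.9 and young mice at 30.6 to 53.8. The number of effectors that rose was lowest, at 14, without young 2.

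Among 18 interferon-inducible GTPases 9 rose and none fell, with a median log2 difference of 0.82. These large GTPases attack the vacuoles that hold intracellular pathogens. Irgm1, a regulator of the family (chr11:48861968-48871683, minus strand), was at 287, 185, 203 and 183 in young mice and at 409, 511, 408, 453 and 405 in old mice. Young 1 was the highest young mouse and still below all old mice, and Irgm1 rose 2.06-fold (adjusted p = 0.000404). Gbp3 rose 1.91-fold, Gbp6 2.38-fold and Irgm2 1.76-fold (adjusted p = 0.00151, 0.00812 and 0.00618). Members of this family are alike in sequence and Irgm2 overlaps Igtp on the same strand, so reads may have been split among them. Igtp (0.59, adjusted p = 0.0161) lost its call without young 4 (0.0562). With 1 mouse left out 6 to 9 members passed. Of 21 sensors of foreign nucleic acid 5 rose, with a median of 0.58. Aim2, the cytosolic DNA sensor, was at 39.96, 31.6, 53.7 and 26.4 in young mice and 84.3, 102, 96.2, 174 and 99.2 in old mice, and rose 2.88-fold (adjusted p = 0.00114). Old 4 was well above the other old mice. The RNA helicase sensors Ddx58 (RIG-I) and Ifih1 (MDA5) rose by 0.79 ± 0.12 and 0.65 ± 0.12 (adjusted p = 0.00143 and 0.00648). The sensor count was 3 without young 1 or young 2.

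The start regions of several of these genes are shown as examples of the element described above, and were picked because they hold it. Not all members do. In each line the capitals mark GAAA, 2 bases of any kind and GAAA again, on either strand, the core of the interferon-stimulated response element, and overlapping matches are joined. The stretches come from RefSeq (GRCm38.p6) and read 5′ to 3′ along the strand of the gene: Ifit1 chr19:34640784-34640833, plus strand; Ifit3 chr19:34583387-34583436, plus; Oas1a chr5:120907526-120907559, minus; Bst2 chr8:71537567-71537616, minus; Rsad2 chr12:26456543-26456592, minus; Igtp chr11:58199502-58199551, plus; Irgm2 chr11:58214893-58214942, plus; B2m chr2:122147528-122147577, plus.
Ifit1: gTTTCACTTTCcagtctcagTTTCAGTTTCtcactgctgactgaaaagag
Ifit3: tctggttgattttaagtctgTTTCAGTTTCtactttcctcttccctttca
Oas1a: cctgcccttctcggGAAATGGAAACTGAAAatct
Bst2: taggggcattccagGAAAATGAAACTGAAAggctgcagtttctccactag
Rsad2: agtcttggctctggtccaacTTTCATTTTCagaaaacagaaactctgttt
Igtp: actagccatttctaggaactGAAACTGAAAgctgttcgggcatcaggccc
Irgm2: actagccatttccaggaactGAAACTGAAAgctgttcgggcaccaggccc
B2m: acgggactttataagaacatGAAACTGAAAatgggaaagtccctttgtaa
In the 250 bases before the start site this motif was found for 12 of the 34 effectors with a RefSeq promoter (35.29%, of 40 tested) and for 936 of all 27025 promoters (3.46%). It was found for 4 of 18 interferon signalling genes with a promoter (22.22%) and for 2 of 14 genes of MHC class I presentation (14.29%). For GTPases it was 9 of 10 (90.0%, of 18 tested), and over tested genes 387 of 12458 (3.11%). Among members that passed and had a promoter, 8 of 16 effectors, 5 of 5 GTPases, 0 of 5 signalling genes and 2 of 8 class I genes held it. The match is a description of letters and was not tested against the change with age.

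MHC class I presentation rose at the steps of peptide cutting, pumping and display. Of 16 tested genes 10 rose and none fell, 16 of 16 had a positive difference, and the median was 0.56; with 1 mouse left out 9 or 10 passed. The peptide pump subunit Tap1 (chr17:34187553-34197225, plus strand) was at 139, 118, 80.1 and 85.9 in young mice and at 217, 296, 183, 236 and 207 in old mice. The groups did not overlap, and Tap1 rose 2.17-fold (adjusted p = 0.00167). Its partner Tap2 rose by 0.55 ± 0.10 and the immunoproteasome subunit Psmb8 by 0.996 ± 0.16 (adjusted p = 0.00572 and 0.00154). These genes sit side by side: Psmb9, Tap1, Psmb8 and Tap2 formed 1 of 3 runs of at least 3 neighbouring genes that passed, at chr17:34181987-34216321. Psmb9 overlaps Tap1 on the other strand, and its call ended without young 2 or young 3 (adjusted p = 0.0784 and 0.0516). B2m, the light chain, was at 3062 to 3182 in young mice and 4358 to 5000 in old mice and rose 1.47-fold (adjusted p = 0.0028). The heavy chains H2-K1 and H2-Q4 rose 1.77-fold and 2.44-fold (adjusted p = 0.000579 and 0.000148), though reads can be shared among H2 genes. Nlrc5, the transactivator of class I genes, rose by 1.78 ± 0.35 from a low level (6.88 to 26.4 in young mice, 38.2 to 86.9 in old mice, adjusted p = 0.00817). Tapbp and Psmb10 had differences of 0.12 each with adjusted p of 0.471 and 0.484.

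MHC class II presentation moved less evenly. Of 17 tested genes 3 passed, all higher: Lag3, a ligand of class II on other cells, the protease Ctss, and the co-stimulator Cd86. Ctss rose by 0.73 ± 0.10 (adjusted p = 0.000428), whereas Cd86 passed at 0.0474 only with all 9 mice present (0.05 to 0.143 with any 1 left out) and not with the brainstem covariate (0.101). The invariant chain Cd74 was at 241, 188, 180 and 205 in young mice and 303, 219, 279, 387 and 251 in old mice, which overlapped (log2 difference 0.48, adjusted p = 0.213).

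Among microglial receptors, those of the ITAM branch rose in part. Of 25 Fc receptor and ITAM signalling genes 11 rose and none fell (median 0.50). Trem2, a receptor for lipids (chr17:48346401-48354147, plus strand), was at 345, 254, 312 and 318 in young mice and at 491, 576, 450, 538 and 502 in old mice. Its adaptor Tyrobp was at 369, 244, 321 and 284 in young mice and at 504, 572, 504, 561 and 545 in old mice. For both, each old mouse was above each young mouse, and they rose 1.67-fold and 1.78-fold (adjusted p = 0.00273 and 0.000826). Cd22, an inhibitory receptor for sialic acid (chr7:30865402-30880342, minus strand), was at 22.02, 8.17, 4.06 and 8.02 in young mice and at 52.0, 69.2, 34.9, 61.9 and 59.0 in old mice, 5.55-fold higher (adjusted p = 0.000449). Fcgr2b, the inhibitory Fc receptor, rose 1.94-fold (adjusted p = 0.00241). The 11 calls became 5 without young 3 or young 4, 6 without old 1, old 5 or young 2, and 7 without old 2 or old 4.

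Of 27 genes that mark homeostatic microglia 4 rose and none fell. The median difference was 0.11, and it was 0.04 without old 3, 0.06 without old 5, 0.07 without young 3, 0.02 without young 4 and -0.0092 with the brainstem covariate. P2ry12, the ADP receptor that guides microglial processes, was at 1260, 929, 967 and 1060 in young mice and at 1039, 847, 1153, 942 and 1139 in old mice. The values interleaved (log2 difference -0.04, 95% interval -0.28 to 0.20, adjusted p = 0.881). Tmem119 had a difference of -0.02 (-0.25 to 0.21) and the growth factor receptor Csf1r one of 0.04 (-0.12 to 0.21), and neither passed. The homeostatic count was 1 without young 3, 2 without old 2, old 4, old 5, young 2 or young 4, and 3 without old 1 or young 1.

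Of the activated state, 19 of 38 genes of activated microglia rose and none fell, with a median of 0.77; 17 to 20 passed with 1 mouse left out. Many of these genes are known from aged and diseased brain, so the direction of the list is no independent evidence. Lyz2, or lysozyme, was at 347, 260, 249 and 278 in young mice and at 622, 707, 720, 922 and 647 in old mice, 2.54-fold higher (adjusted p = 9.04e-05). Cybb, the catalytic subunit of the phagocyte oxidase, was at 18.3 to 32.7 in young mice and 58.0 to 111 in old mice, 2.99-fold higher (adjusted p = 0.00129). Lilrb4a, an inhibitory receptor, was at 8.15, 1.02, 2.03 and 2.29 in young mice and at 26.5, 49.6, 22.2, 41.7 and 33.4 in old mice. It was close to the detection limit in 3 young mice and rose by 3.22 ± 0.49 on the log2(value + 1) scale (adjusted p = 0.00114). Cd52 rose 3.30-fold, Ccl6 2.60-fold and Gpnmb 2.08-fold (adjusted p = 0.000603, 0.000216 and 0.00952). The metalloprotease Mmp12, of another list, was at 0.815, 1.02, 0 and 0 in young mice and at 28.4, 24.3, 19.0, 39.3 and 7.86 in old mice; it passed (adjusted p = 0.000148), and its fold has no stable denominator.

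Several receptors of the SLAM family, which join immune cells to each other, passed; no list of the family was tested. Ly9 was at 13.9, 10.2, 19.3 and 11.5 in young mice and at 52.0, 50.5, 62.4, 53.6 and 45.2 in old mice, 3.73-fold higher (adjusted p = 0.000141). Cd84 rose 2.07-fold and Slamf8 by 2.19 ± 0.42 on the log2 scale (adjusted p = 0.000449 and 0.00808). Slamf9, named after its values were seen (1.64 ± 0.36, adjusted p = 0.0174) lost its call without young 3 (0.061). Of 21 Toll-like receptors and adaptors 5 rose and none fell, with a median of 0.42. Tlr13, which reads bacterial ribosomal RNA, rose 1.97-fold, the endosomal chaperone Unc93b1 1.36-fold and Cd14 1.69-fold (adjusted p = 0.00456, 0.00456 and 0.00992), Cd14 not after quantile normalisation (0.0591). The Toll-like count was 3 without old 4, young 2, young 3 or young 4.

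Degradative genes changed in a small part. Of 54 lysosomal genes 8 rose and none fell (6 to 8 with 1 mouse left out), 46 had a positive difference, and the median was 0.13. Cd68, a macrosialin of phagocytes, rose 1.75-fold (adjusted p = 0.000449), and Man2b1, a mannosidase of all cells, 1.34-fold (adjusted p = 0.00103), from 1492 to 1664 in young mice to 1889 to 2262 in old mice. The aspartic protease Ctsd, at 12876 to 14008 in young mice and 14651 to 17380 in old mice, had an adjusted p of 0.114. Slc11a1, the phagosomal iron and manganese exporter, rose 2.15-fold (adjusted p = 0.000449), and Fth1, the ferritin heavy chain, differed by 0.28 with an adjusted p of 0.132. Of 31 lipoprotein and sterol transport genes 4 rose; they included Ch25h, the cholesterol hydroxylase (2.71-fold, adjusted p = 0.00995). That count was 2 without young 1 or young 4.

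Of 23 T cell and NK cell genes 4 reached the level for testing and none passed. Cd3e, Cd8a and Ccl5 were below that level and were not tested. Cd3e was at 4.89, 3.06, 6.08 and 2.29 in young mice and at 11.8, 6.55, 4.23, 15.5 and 9.83 in old mice, mostly higher. Cd8a was at 0, 0, 0 and 5.73 in young mice and at 4.90, 8.42, 6.35, 13.1 and 4.91 in old mice. Ccl5, a chemokine of T cells, was at 0 to 4.06 in young mice and 7.15 to 15.9 in old mice, without overlap. None of 14 border macrophage genes passed; Lyve1 was at 26.4 to 51.4 in young mice and 14.8 to 23.4 in old mice (log2 difference -0.90, adjusted p = 0.106). Of 4 tested B cell genes Cd22 alone passed, while Cd79a had a difference of -0.52 (adjusted p = 0.448). None of 9 neutrophil and red cell genes passed, and their mean log2 level ran from 4.144 to 5.835 in young mice and from 3.739 to 6.678 in old mice, lowest in old 5. The border macrophage list stood at 5.32 to 5.826 in young mice and 5.53 to 5.713 in old mice. The part of these cells in the immune changes was not tested.

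**Figure D2:**
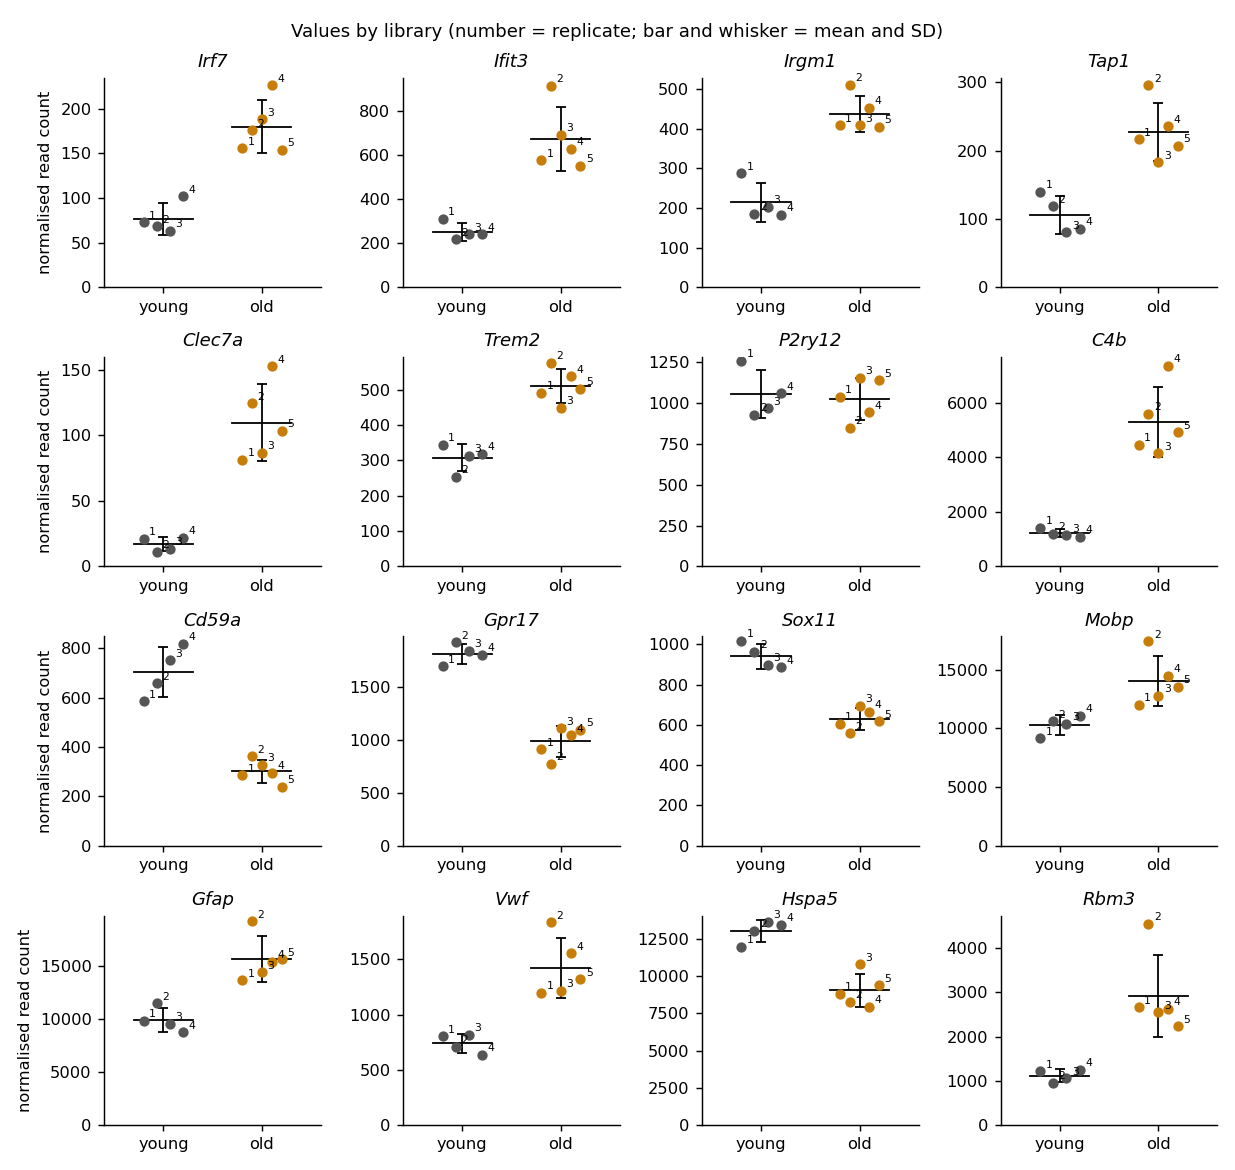
Normalised reads of 16 genes in the 4 young and 5 old vehicle libraries, numbered by replicate, with the mean and SD. Irf7, Ifit3, Irgm1, Tap1, Trem2, C4b and Vwf are clear of the young mice in each old mouse, P2ry12 interleaves, Cd59a, Gpr17, Sox11 and Hspa5 are lower in each old mouse, and old 2 stands above the other old mice for Rbm3.

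Of 29 complement genes 7 rose and 2 fell. The median was 0.32, and it was 0.18 without old 4 or young 4 and 0.17 after quantile normalisation. C3, the central component, was at 117, 113, 126 and 94.0 in young mice and at 256, 314, 204, 334 and 321 in old mice. Its receptor C3ar1 was at 63.0 to 73.4 in young mice and 113 to 195 in old mice. Both were higher in each old mouse, by 2.50-fold and 2.26-fold (adjusted p = 0.00495 and 0.000774). C1qc, of the initiating complex, rose by 0.50 ± 0.10 (adjusted p = 0.0118); C1qa (0.51) passed at 0.0299 but not without old 1, old 2, old 5, young 2, young 3 or young 4 (0.0541 to 0.0866), and C1qb (0.34) did not pass (0.0819). Cd59a, the inhibitor of the membrane attack complex, was at 586, 658, 751 and 819 in young mice and 284, 362, 328, 294 and 238 in old mice. It fell by 1.22 ± 0.16 (adjusted p = 0.00034). Cd55, which dissolves the convertase, fell by 0.50 (adjusted p = 0.042), a call that held without young 4 and was lost without any other single mouse (0.0558 to 0.117) and with the brainstem covariate (0.115).

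Of 31 reactive astrocyte genes 11 rose and none fell, with a median of 0.52. Some of the 11 are on other lists here as well: C4b with complement, Psmb8 with MHC class I, Iigp1 with the interferon-inducible GTPases and Cd14 with the Toll-like receptors. Whole-brain RNA does not tell which cells made them. Osmr, the oncostatin M receptor, was at 130, 138, 129 and 150 in young mice and 223, 247, 228, 285 and 209 in old mice, 1.73-fold higher (adjusted p = 0.00514). Gfap, the intermediate filament protein (chr11:102887336-102900912, minus strand), was at 9837, 11472, 9518 and 8744 in young mice and 13639, 19222, 14377, 15390 and 15630 in old mice. No old mouse was below a young one, and Gfap rose 1.58-fold (adjusted p = 0.0185), but the call was lost without young 3 or young 4 (0.0536 and 0.0626). Serpina3n, a secreted protease inhibitor, rose 1.73-fold (adjusted p = 0.000826). The reactive count was 7 without young 3, the lowest. Of 30 astrocyte transport and metabolism genes 1 rose, where 3.13% of all tested genes rose. It was the urea transporter Slc14a1 (0.39, adjusted p = 0.0387). Its call held only without old 3 or without young 2 and was lost without any other single mouse (0.0536 to 0.107). Of the 30 differences 18 were negative.

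Myelin genes rose, and their number leaned on young 1. Of 36 genes of myelinating oligodendrocytes 13 rose and none fell, with a median of 0.30, but 5 rose without young 1, 6 without old 2 or young 2, 7 without young 3 and 8 without old 4, and the median was 0.18 without young 1. Opalin, a membrane protein of the mature cell, was at 462, 467, 488 and 604 in young mice and at 806, 737, 664, 894 and 813 in old mice. It rose 1.55-fold, clear of the young mice (adjusted p = 0.00273). Pllp, or plasmolipin, rose 1.33-fold (adjusted p = 0.00812). Mobp was at 9139, 10605, 10383 and 11073 in young mice and 11995, 17430, 12760, 14466 and 13556 in old mice (0.44 ± 0.10, adjusted p = 0.0191), and lost its call without young 1 (0.0566). Mbp itself, the main protein of compact myelin, had a difference of 0.32 and an adjusted p of 0.0903. Young 1 was the lowest young mouse for Mbp at 96544, against 131767 to 139366 in the other young mice, and the same library lacked cerebellar RNA. The part of that region in the myelin result was not tested.

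For earlier stages of the oligodendrocyte line, none of 18 precursor genes passed. Among 28 genes of committed and newly formed oligodendrocytes none rose and 2 fell. Gpr17, a receptor that marks the cell on the point of maturing, was at 1694, 1919, 1840 and 1801 in young mice and at 910, 770, 1110, 1041 and 1093 in old mice. It fell by 0.89 ± 0.13, 1.86-fold lower (adjusted p = 0.000671), and it overlaps Lims2 on the other strand, which did not pass. The sialidase Neu4 fell by 0.44 (adjusted p = 0.0497), a call that held without old 2 or young 1 and was lost without any other single mouse (0.0796 to 0.128). With the brainstem covariate Neu4 differed by -0.27 (adjusted p = 0.181).

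**Figure D3:**
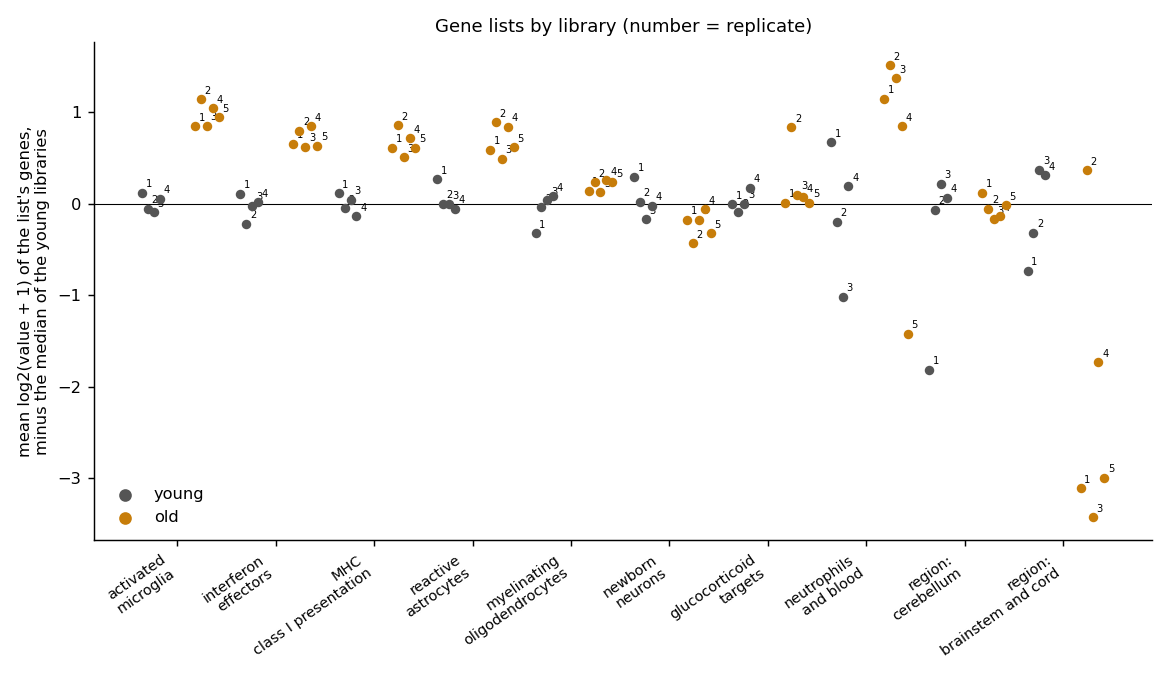
Mean log2(value + 1) of 10 gene lists in each library, minus the median of the young libraries, with the replicate number beside each point. Activated microglia, interferon effectors and MHC class I are above 0 in each old mouse, young 1 stands alone for the cerebellar list and lowest for myelin, old 2 stands alone for glucocorticoid targets, and old 1, 3, 4 and 5 are far below 0 for the brainstem and cord list.

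Of 28 genes of newborn neurons 3 fell and none rose, 24 had a negative difference, and the median was -0.20 (-0.31 without young 3); the count was 3 whichever mouse was left out. The mean log2 level of the list was highest in young 1 (10.484) and lowest in old 2 and old 5 (9.758 and 9.871), and the olfactory bulb list was highest in young 1 (9.254) and lowest in old 5, young 3 and old 2 (6.951, 7.123 and 7.194). The part of bulb content in this result was not tested. Sox11, a transcription factor of immature neurons (chr12:27334264-27342574, minus strand), was at 1016, 963, 896 and 884 in young mice and 604, 557, 694, 666 and 618 in old mice. Its relative Sox4 was at 1183, 813, 747 and 746 in young mice and 585, 515, 618, 638 and 555 in old mice. Both were lower in each old mouse, with young 1 the highest for Sox4, and they fell by 0.58 ± 0.08 and 0.56 ± 0.12 (adjusted p = 0.000473 and 0.0191). Dpysl3, a protein of growing axons, fell by 0.30 ± 0.06 (adjusted p = 0.0093). Of 42 cell cycle genes 1 fell, where 0.803% of all tested genes fell. It was the topoisomerase Top2a (from 32.5 to 72.2 in young mice to 18.6 to 31.7 in old mice, adjusted p = 0.0324). Its call was lost without old 1, old 2, young 2 or young 4 (0.0753 to 0.107).

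Of 40 synaptic vesicle genes 1 fell, of 35 postsynaptic scaffold genes 2 fell, of 25 glutamate receptor genes 1 fell, and none of these rose. Over all tested genes 0.803% fell and 3.13% rose. The 4 calls were Syn1, Nptxr, Nptx2 and Grin3a, and each depended on which mice were included. Syn1, or synapsin, which overlaps Araf, was lost in 7 of the 9 fits with 1 mouse left out (adjusted p = 0.0661 to 0.136). Nptx2, a secreted clusterer of AMPA receptors, was at 2052, 2289, 1926 and 2108 in young mice and 1274, 862, 1460, 1194 and 1340 in old mice. Its fall of 0.79 ± 0.20 (adjusted p = 0.0345) showed no overlap of the groups, yet held without old 3 only (0.0505 to 0.107 otherwise). It was also the 1 gene that passed among 33 activity-regulated genes, of which 28 had a negative difference (median -0.23, and -0.14 without young 1). Without old 3 the scaffold calls were 4 and the activity-regulated calls 2. Nptxr (-0.40, adjusted p = 0.0266) was lost without old 2, old 5, young 1 or young 2 (0.0556 to 0.0871), and Grin3a (-0.27, adjusted p = 0.0256) without old 2, old 5, young 2 or young 3 (0.0516 to 0.0943).

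Single neuronal genes outside these lists passed more firmly. Cort, or cortistatin, a peptide of cortical interneurons, was the 1 neuropeptide of 37 that passed, where 3.93% of all tested genes passed. It was at 49.7, 41.9, 76.0 and 69.9 in young mice and at 147, 169, 162, 114 and 137 in old mice, 2.48-fold higher and clear of the young mice (adjusted p = 0.00114). None of 24 interneuron marker genes passed. Ndn, or necdin, an imprinted gene of postmitotic neurons (chr7:62346569-62350262, plus strand), was at 8743, 9325, 8891 and 8710 in young mice and 5451, 6030, 5117, 4834 and 4458 in old mice. It fell by 0.79 ± 0.15, 1.73-fold lower, with no overlap (adjusted p = 0.00812). Oxtr, the oxytocin receptor, was at 339 to 471 in young mice and 226 to 308 in old mice and fell by 0.59 ± 0.12 (adjusted p = 0.0105). Hrk, a BH3-only activator of apoptosis, fell by 0.47 ± 0.09, and the Ras-like gene Rasl10a by 0.72 ± 0.13 (adjusted p = 0.00641 and 0.00618); Rasl10a overlaps Gas2l1 on the other strand, which differed by -0.28 (adjusted p = 0.0211). Syt17, a synaptotagmin, fell by 0.60 ± 0.11 and Elfn1, a postsynaptic organiser of interneurons, by 0.40 ± 0.08 (adjusted p = 0.00732 and 0.0141). No potassium channel of 58 passed, nor any of 34 sodium and calcium channel genes or of 52 genes of the monoamine and acetylcholine systems.

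In the vessel wall, 3 of 38 endothelial genes rose and none fell. Vwf, the von Willebrand factor (chr6:125546774-125686679, plus strand), was at 804, 706, 819 and 634 in young mice and at 1197, 1838, 1213, 1557 and 1320 in old mice. Icam1, an adhesion molecule for leukocytes, was at 88.9, 77.6, 76.0 and 68.8 in young mice and at 179, 191, 168, 160 and 150 in old mice. Each old mouse was above each young mouse for both, and they rose 1.91-fold and 2.17-fold (adjusted p = 0.000449 and 0.000363). Ly6a (0.66, adjusted p = 0.0401) lost its call when any 1 mouse was left out (0.0657 to 0.104) and with the brainstem covariate (0.0618). None of 21 mural cell genes passed. In the extracellular matrix 1 of 62 genes rose and 3 fell, where 3.13% of all tested genes rose and 0.803% fell. The rise was of Hapln2, a link protein at nodes of Ranvier (0.66, adjusted p = 0.0264), and was lost without old 2, old 4, young 1 or young 2 (0.0569 to 0.0762). Tnc, or tenascin C, a matrix protein of development and injury (chr4:63959785-64047015, minus strand), was at 238, 403, 503 and 478 in young mice and 208, 119, 188, 208 and 204 in old mice. It fell by 1.10 ± 0.21 (adjusted p = 0.00812), with young 1 closest to the old mice and old 2 lowest. Of the others that fell, the perineuronal net proteoglycan Ncan (-0.41, adjusted p = 0.0478) held without old 4 only (0.0568 to 0.135 otherwise), and Col3a1 (-0.89, adjusted p = 0.0372) held without old 4, old 5 or young 4 only (0.0625 to 0.113 otherwise) and not with the brainstem covariate (0.0894).

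The barriers around the ventricles had mostly negative differences without a gene that passed. Of 19 choroid plexus genes 18 were lower in old mice (median -0.37, and -0.24 without old 3), and of 20 ependymal genes 18 were lower (median -0.23, and -0.14 without young 1). Kcne2, a potassium channel subunit of the plexus, was at 231 to 314 in young mice and at 110 to 174 in old mice, without overlap, and had an adjusted p of 0.087. Ttr, the transthyretin of the plexus, was at 36610 to 47645 in young mice and 24413 to 38979 in old mice. With the brainstem list as a covariate the plexus median was -0.09, and in apigenin mice it was 0.00.

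The RNA-binding proteins Rbm3 and Cirbp, known to be induced by cold, rose. Rbm3 (chrX:8138975-8145880, minus strand) was at 1214, 947, 1050 and 1254 in young mice and at 2664, 4561, 2549, 2628 and 2236 in old mice. Cirbp (chr10:80165985-80172786, plus strand) was at 1768, 1477, 1386 and 1608 in young mice and at 3037, 5381, 2329, 2782 and 2436 in old mice. In both, old 2 was far above the other 4 old mice, which were themselves above all young mice. The differences were 2.55-fold for Rbm3 and 1.95-fold for Cirbp (adjusted p = 0.000343 and 0.0105), and both passed in each fit with 1 mouse left out. Other genes of RNA processing, named after their values were seen, changed less: Hnrnpd rose by 0.23 ± 0.04, the nucleolar protein Ncl by 0.30 ± 0.05 and the spliceosomal Snrpd1 by 0.44 ± 0.09 (adjusted p = 0.0093, 0.0036 and 0.00817). Gas5, a noncoding host of small nucleolar RNAs, rose by 0.49 ± 0.08 (adjusted p = 0.00299). The splicing factor Srsf5 rose by 0.67 ± 0.15 (adjusted p = 0.0209) but not without young 2, young 3 or young 4 (0.0517 to 0.0784).

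Of 36 chaperones of the endoplasmic reticulum 6 fell and none rose, with a median of -0.05. Hspa5, or BiP, the master chaperone of the compartment (chr2:34771970-34777547, plus strand), was at 11993, 13043, 13656 and 13468 in young mice and at 8834, 8287, 10811, 7923 and 9378 in old mice. Every old mouse was below every young mouse, and Hspa5 fell by 0.53 ± 0.11 (adjusted p = 0.014). It passed in each fit with 1 mouse left out, whereas the other 5 did not: Hyou1, Pdia4, Calr, Dnajb11 and Pdia6 had adjusted p from 0.0262 to 0.0424 and were lost in 4 to 7 of the 9 fits, Dnajb11 also with the brainstem covariate (0.0727). The count was 7 without old 3, 1 without old 2, young 2 or young 3, 2 without old 1, old 4 or young 4, and 3 without young 1. Calreticulin, Calr, was at 18667, 20952, 19034 and 19072 in young mice and 14514, 11692, 15997, 12971 and 15649 in old mice (-0.46 ± 0.12), and lost its call without old 1, old 2, old 4 or any 1 young mouse (0.063 to 0.123). The disulfide isomerase Pdia6 differed by -0.39 ± 0.10, was lost under the same 7 (0.0753 to 0.106) and overlaps Atp6v1c2 on the other strand. Calr and Pdia6 are shown because their start regions hold the letters of the endoplasmic reticulum stress element, in capitals (RefSeq, GRCm38.p6; Calr chr8:84847055-84847113, minus strand; Pdia6 chr12:17266471-17266529, plus strand).
Calr: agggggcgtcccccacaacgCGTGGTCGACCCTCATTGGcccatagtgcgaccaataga
Pdia6: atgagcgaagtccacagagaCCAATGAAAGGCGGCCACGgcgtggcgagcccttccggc
The element, CCAAT, 9 bases of any kind and CCACG, on either strand, was found in the 250 bases before the start of 10 of 30 chaperones with a RefSeq promoter (33.33%, of 36 tested) and in 35 of 27025 promoters in all (0.13%). Hspa5 holds it as well, 65 to 47 bases before its start site, and its stretch is not printed. In the cytosol, 3 of 35 heat shock genes fell and none rose, 28 had a negative difference, and the median was -0.15. Those 3, Dnajb1, Hsph1 and Dnaja4, passed at adjusted p = 0.027, 0.0425 and 0.0485; none of them passed without old 2, old 4, young 2, young 3 or young 4, 1 did without old 1 or old 5, and 2 did without young 1. With the brainstem covariate Dnajb1 and Dnaja4 had adjusted p of 0.0719 and 0.055.

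Clustered protocadherins, adhesion molecules that give neurons a surface identity, rose in 13 of 46 tested genes, with none lower and a median of 0.23; 9 to 14 passed with 1 mouse left out. The 13 belonged to the beta and gamma clusters, and Pcdhb2 to Pcdhb6 formed a run of 5 neighbours that passed, though Pcdhb6 (adjusted p = 0.0447) held without old 2 only (0.0635 to 0.129 otherwise) and not with the brainstem covariate (0.121). Pcdhb11 rose by 0.70 ± 0.10 and Pcdhb14 by 0.62 ± 0.10, Pcdhb14 from 274 to 340 in young mice to 465 to 499 in old mice (adjusted p = 0.000543 and 0.00125). Members of a cluster are alike in sequence and gamma members share exons, so reads may be divided among them. Another run was Parp14, Dtx3l and Parp9 at chr16:35832874-35972605, all on the interferon list; Dtx3l and Parp9 overlap on opposite strands, and Parp9 (adjusted p = 0.0338) was lost without old 1, old 2, old 4, young 2, young 3 or young 4 (0.065 to 0.103).

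On chromosome 19, between 36917550 and 37337852, Ide, Fgfbp3 and Btaf1 lie near each other with Cpeb3 among them and were looked at after their values were seen. Ide, the insulin-degrading enzyme (chr19:37268743-37337852, minus strand), was at 1690, 1708, 1722 and 1914 in young mice and at 3488, 2068, 3478, 2804 and 3467 in old mice. Btaf1 was at 1118 to 1353 in young mice and at 1957, 1185, 2069, 1929 and 1838 in old mice. Old 2 was the lowest old mouse for both and within the young range for Btaf1. Ide, whose adjusted p was 0.0533 with the brainstem list as a covariate, rose by 0.77 ± 0.16 and Fgfbp3 by 0.83 ± 0.17 (adjusted p = 0.0148 and 0.0126), Fgfbp3 not without young 2 (0.0543), while Btaf1 (0.50, adjusted p = 0.0323) was lost in 7 of the 9 fits with 1 mouse left out (0.0589 to 0.11). With the brainstem covariate Btaf1 differed by 0.29 (adjusted p = 0.126). Cpeb3 did not pass (0.07, adjusted p = 0.651). Genes at which C57BL/6 substrains are known to differ were also among the calls. Nnt was 2.30-fold and Gabra2 3.40-fold lower in old mice (adjusted p = 1.82e-05 and 1.59e-06). Wdfy1, another such gene, passed as lower too, with log2 differences from -2.1584 to -1.8873 over the 20 alternative fits. A difference of substrain between the age groups cannot be told apart from age by these labels. The same holds for a difference of genotype at Ide, Fgfbp3 and Btaf1, which was not tested.

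Stress and repair lists beyond the immune system held few calls. Pmaip1, or Noxa, a p53 target that promotes apoptosis, was at 50.03 to 68.8 in young mice and at 100 to 128 in old mice, 1.96-fold higher (adjusted p = 0.00983), and was with Mmp12 the only gene of 32 in the p53 and senescence list that passed. Bhlhe41, a repressor of the circadian clock, was at 1980 to 2070 in young mice and 2394 to 3339 in old mice and rose by 0.41 ± 0.08 (adjusted p = 0.0113). No gene passed among 38 antioxidant and metallothionein genes, 35 autophagy genes, 27 glycolysis genes, 19 histone genes, 44 neurotrophins and growth factors or 20 glucocorticoid targets. Among genes on no list, Crb1, a polarity protein, rose by 1.90 ± 0.35 (adjusted p = 0.00618), and the dual-specificity kinase Map2k6 and the F-box gene Fbxl7 fell by 0.41 ± 0.08 and 0.77 ± 0.14 (adjusted p = 0.00681 and 0.00655). Fbxl7 was at 87.2, 97.0, 95.3 and 92.8 in young mice and at 52.9, 52.4, 56.1, 52.4 and 57.0 in old mice, with little spread in either group.

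**Figure D4:**
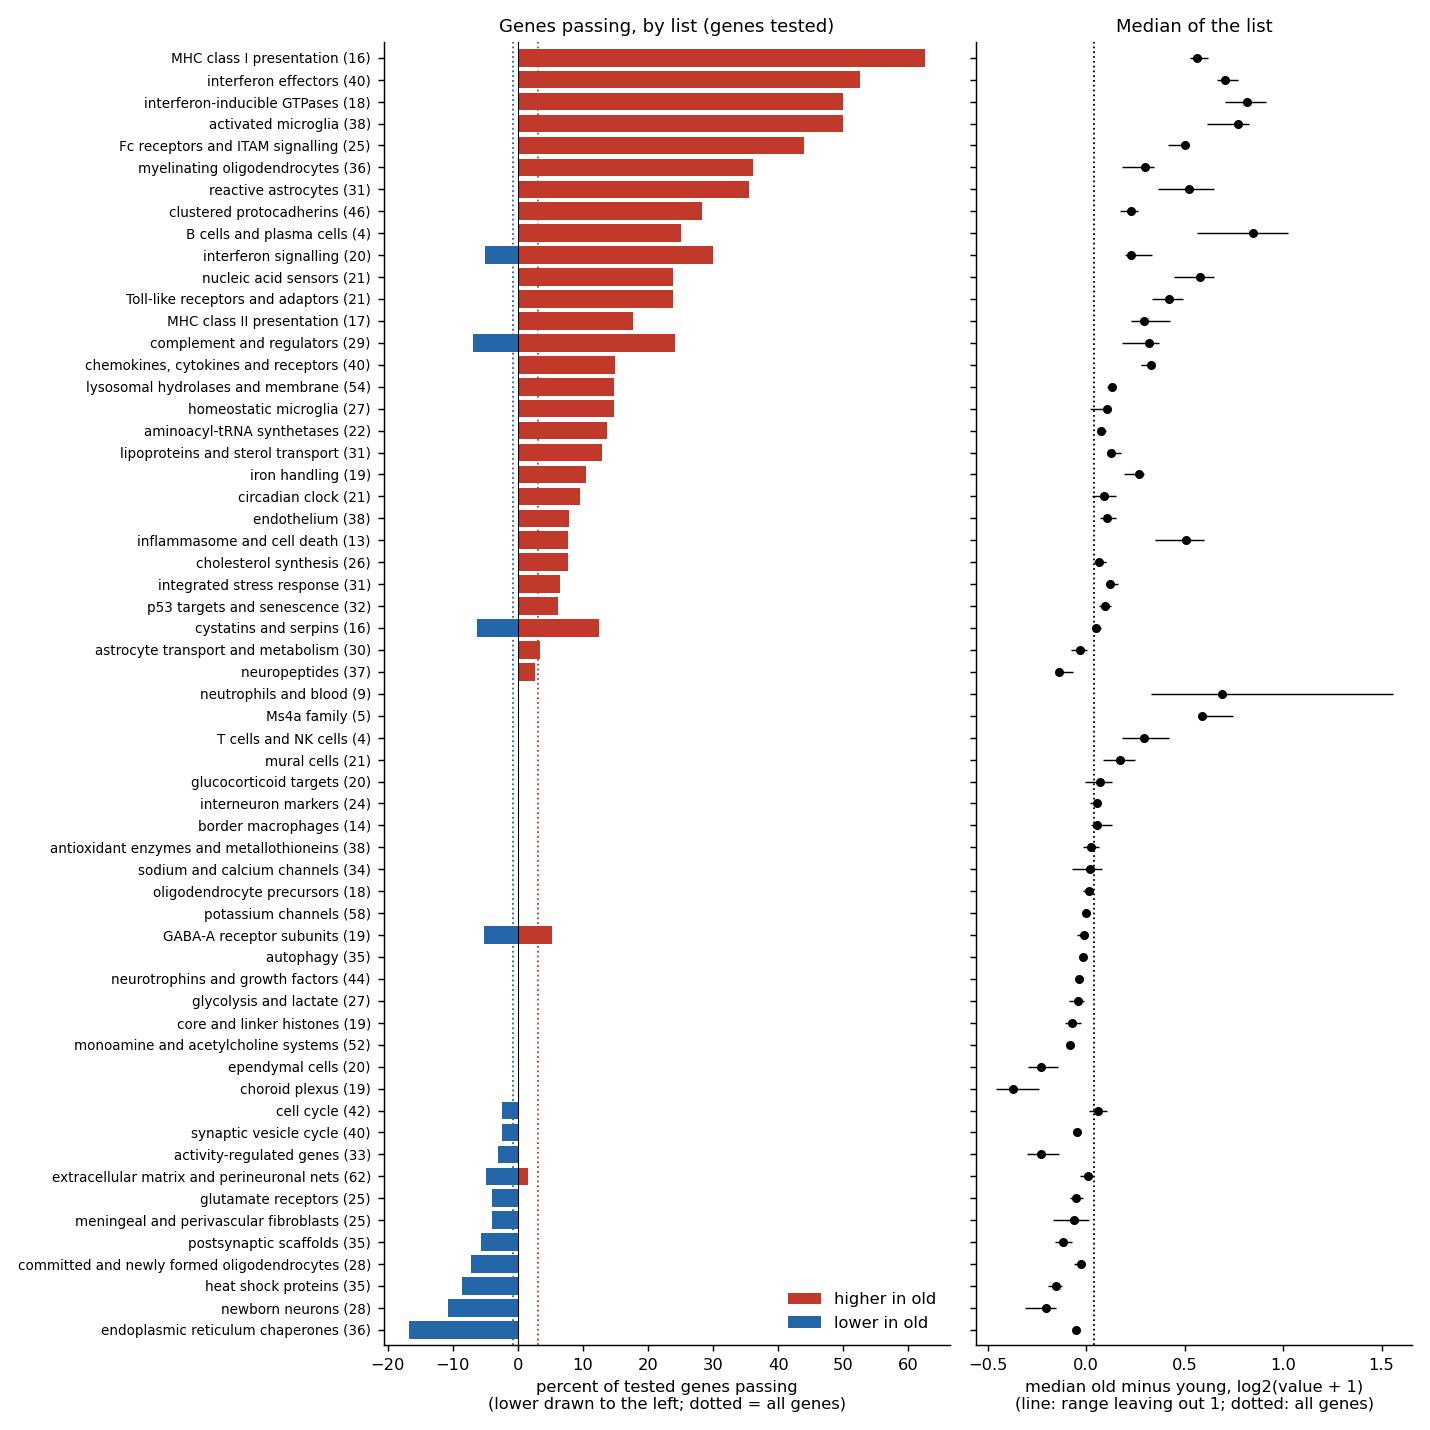
For each gene list with its number of tested genes, the left panel gives the percent that passed higher (right) or lower (left) in old mice, with dotted lines for all genes (3.13% and 0.803%). The right panel gives the list's median log2 difference, a line for its range with 1 mouse left out and a dotted line at 0.0388, and shows MHC class I, interferon and activated microglia lists to the right of it and newborn neurons, activity-regulated genes and choroid plexus to the left.

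The same ages could be compared in apigenin mice, 5 old and 3 young, which share no mouse with the vehicle groups. There 278 genes passed (1.76%), 224 higher (1.42%) and 54 lower (0.342%). Of the 622 genes of the vehicle comparison 610 had the same sign (98.1%, against 72.3% of all tested genes) and 216 passed as well (34.7%). Genes higher in old vehicle mice had a median log2 difference of 0.59 in vehicle mice and 0.43 in apigenin mice; those lower had medians of -0.34 and -0.26. Since the genes were chosen by the vehicle values, the smaller apigenin medians are no test of a drug effect. A direct test of the difference between the age effects called no gene (limma, smallest adjusted p 1.0, with 196 genes at an unadjusted p under 0.05). Side by side, Irf7 differed by 1.24 and 2.05, Ifit1 by 1.35 and 2.11, Trem2 by 0.74 and 0.77, Gpr17 by -0.89 and -0.85, Rbm3 by 1.35 and 1.23 and Hspa5 by -0.53 and -0.56 in vehicle and apigenin mice. Gfap differed by 0.66 and 1.002, and Ndn by -0.79 and -0.41.

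**Figure D5:**
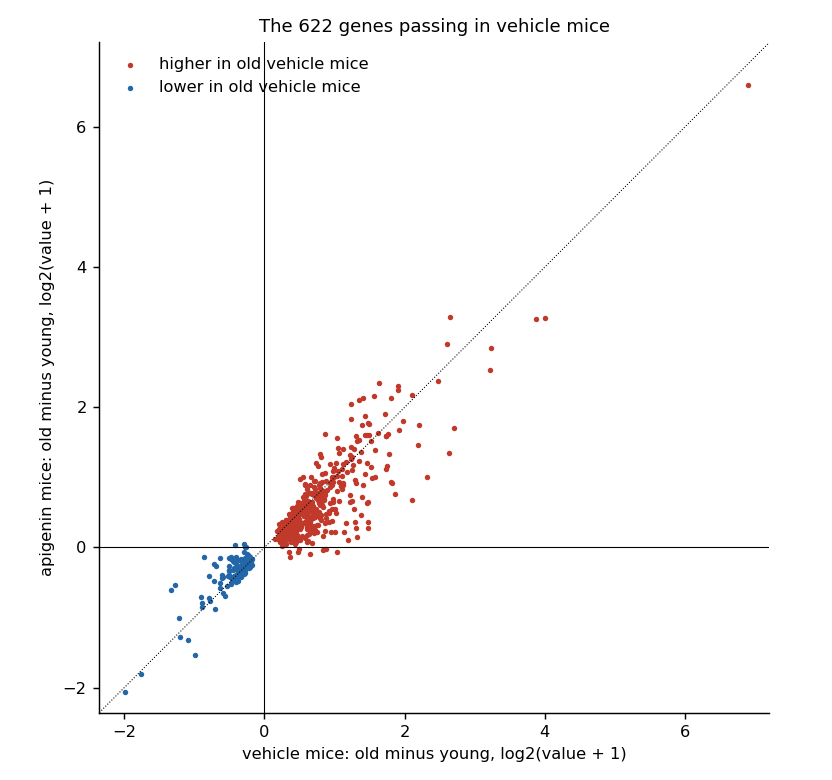
Old minus young differences in log2(value + 1) for the 622 genes that passed in vehicle mice, with the vehicle difference on the horizontal and the apigenin difference on the vertical axis. Of the 622 points 610 have the same sign on both axes.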

How the data were processed

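RNA-seq libraries of whole mouse brain were compared, 1 library per mouse, from 5 old and 4 young vehicle mice; 5 old and 3 young apigenin libraries were in the same fit. Per the submitters' processing notes the authors used STAR, DESeq2 and the mm10 build, and no version of them is given in the sources used here. The deposited values are a signal, read counts per gene divided by a size factor for each library, and all are whole multiples of the value of 1 read (100.0% within 0.01 read). Depth was 28171596 to 41145635 reads, so precision for abundant genes is set by the number of mice.

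Of 24411 rows, 6 damaged rows at the end were left out. Young apigenin replicate 3 was left out because its values are displaced against the gene names (median correlation with other libraries 0.8064, against at least 0.9894). Genes with a mean of at least 10 over the 17 libraries were tested with limma 3.58.1 (R 4.3.3) on log2(value + 1), 1 mean per group and no covariate, with a moderated variance and Benjamini-Hochberg adjustment over 15808 genes at 0.05. Every adjusted p comes from this fit unless another is named. A log2 difference understates the change of genes near 0, and folds were taken from it. Errors after ± are standard errors of the log2 difference. Recovered reads were tested with edgeR 4.0.16 (506 genes called) and DESeq2 1.42.0 (1028). Other alternatives were the pseudocount, the filter, quantile normalisation, library weights, the brainstem list as a covariate, the vehicle libraries alone, a block for replicate number and leaving out each vehicle mouse. On simulated counts with 200 changed genes among 15741, limma recovered 60% of 1.5-fold and 75% of 2-fold changes with 8 false calls. Those counts were drawn independently, without differences in regional content between libraries. Their false calls therefore do not measure the false calls of this comparison.

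The comparison, its 67 gene lists and its tests were chosen with earlier results of these data known. Genes were named when among the 40 higher or 40 lower with the smallest adjusted p, the 20 higher or 20 lower with the largest difference (predicted genes aside), called members of a list or up to 4 further members, or a run of at least 3 neighbouring calls; 14 genes were named after their values were seen. Some genes are not reported here. List members may share reads or overlap, and counting by strand is not stated. RefSeq promoters (GRCm38.p6) were searched for motifs over 250 bases before the start.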

Additional observations from a re-analysis of the deposited data

Results flagged for a closer look

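In 246 groups of 4 or 5 libraries, over the genes shown by library and the gene lists, 20 had 1 library far from the others (8.1%); chance gives about 1 in 20 independent groups, and these share libraries and genes. Old 2 was apart for Rbm3 (4561.4 normalised reads), Cirbp (5381.0), Ctsd (17380.1), Tnc (118.8, the lowest) and Btaf1 (1184.6, the lowest), and for the mean log2 level of glucocorticoid targets (10.53). Old 4 was apart for Aim2 (173.9), for the interferon signalling list (9.034) and, as the lowest, for the hypothalamus list (6.498). Old 5 was lowest for the neutrophil and blood list (3.739) and old 3 for neurotrophins and growth factors (9.466).

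Young 1 was highest for Usp18 (62.79), Sox4 (1183.2), the cortex and hippocampus list (11.51) and the hypothalamus list (6.983), and lowest for the cerebellum list (9.432) and for cystatins and serpins (8.778). Young 2 was lowest for Isg15 (30.63) and highest for glycolysis and lactate genes (12.6). Young 4 was highest for Ide (1913.5).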

How the results depend on the processing

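The number of genes called was 622. It was 1028 with DESeq2 on the recovered reads, 2001 with library weights, 1218 with the brainstem list as a covariate and 402 in a fit of the 9 vehicle libraries alone. With a replicate block 388 genes were called, 318 higher and 70 lower. Old and young vehicle mice with the same replicate number did not deviate together: their deviations correlated at -0.046 to 0.024, and none correlated best with its own number. In same-number pairs with apigenin mice the correlations ran from -0.176 to 0.307, both between old vehicle and old apigenin mice. Some of those were highest with their own number and others were not. Whether the replicate numbers mark a shared source was not tested. Against 495 higher calls in the fit reported, there were 1325 with library weights, 848 with the brainstem list, 328 with edgeR, 308 in the vehicle libraries alone and 282 after quantile normalisation. Against 127 lower calls there were 446 with DESeq2, 676 with library weights, 370 with the brainstem list and 84 without the filter. Leaving out 1 mouse gave 246 to 646 calls, 211 to 513 higher and 35 to 133 lower. The causes of these shifts were not tested. No scaling moved the median of all genes by more than 0.1 (it ran from -0.0043 to 0.0675).

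Among named genes that were called, 131 of 243 kept the call in each alternative that measured them, which was 20 alternatives, or all but the filter at a mean of at least 50 for genes below it, and none reversed its sign. No tested B cell gene was left at a mean of at least 50, so that list has no median there. In the simulated data 1.5-fold and 2-fold changes were both recovered in part only (60% and 75%). The levels of the brainstem and cord, cerebellar, olfactory bulb and pituitary lists differed between libraries. The part of regional content in the calls was not tested beyond the brainstem covariate. That covariate cannot fully separate the level of the brainstem and cord list from age in these mice.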
